A study of Mus musculus with 12 samples.

Results

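The enzymes and chaperones that turn newly made collagen chains into cross-linked fibrils were examined in fore and hind autopods, the hand and foot plates of the mouse embryo. The group was defined by gene name as P4ha1, P4ha2, Plod1, Plod2, Plod3, Serpinh1, Lox, Loxl1, Loxl2 and Bmp1, and its members were all probe sets annotated to exactly 1 of these 10 genes. The 45265 probe sets of the series held 18 of this kind, of which the A array carried 16 and the B array 2, and they covered 9 of the 10 genes. Loxl2 was carried only by probe sets annotated to more than 1 gene, so it has no value here. Of the 18, 14 A probe sets and 1 B probe set were bright enough to be tested.

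All embryos were wild type and of stage E12.5, and whole dissected autopods were used. There were 3 forelimb samples, called 11, 13 and 25 after the numbers in their titles, and 3 hindlimb samples, called 12, 14 and 26. Total RNA of each sample was read on both designs of the Affymetrix MOE430 GeneChip pair, which made 12 arrays. Strain, sex and the number of embryos per sample are not stated in the labels. Whether the samples came from separate litters or pools is not stated either, and p-values therefore reflect no more than the spread among these 6 samples, which may be technical.

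Collagen chains are modified in the endoplasmic reticulum before they fold. Prolyl 4-hydroxylases make the hydroxyproline that keeps the triple helix stable at body temperature, and lysyl hydroxylases make the hydroxylysine used for sugar attachment and for cross-links. The chaperone encoded by Serpinh1 binds the folded helix on its way to the Golgi. Outside the cell, the protease encoded by Bmp1 removes the C-terminal propeptide of fibrillar procollagens, and lysyl oxidases then convert lysines to the aldehydes from which covalent cross-links form. In the E12.5 autopod these steps serve the condensing digit cartilage, the forming tendons and the loose mesenchyme around them.

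Signals are the authors' MAS5.0 values multiplied so that the 2% trimmed mean of each array is 500. Differences are hindlimb minus forelimb of log2(signal + 32), a scale that understates changes of dim probe sets, with limma standard errors (SE) and n = 3 samples per limb. Adjusted p-values are over all 15338 tested probe sets of the A array or 17145 of the B array. In whole tissue, fewer cells of a type and less RNA per cell cannot be told apart, and signals of different probe sets are not compared as levels.

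Limb labels were checked first. Tbx5, the T-box factor of the forelimb, had forelimb signals of 474 to 554.6 and hindlimb signals of 8 to 13.9 on 1 of its A probe sets. On the other, forelimb had 1145 to 1381 and hindlimb 29.3, 173.8 and 29.7, with hindlimb 14 above the other hindlimb samples. Tbx4, its hindlimb counterpart, had 1124 to 1251 and 4497 to 5558 on the B array. The A array of forelimb 11 has no limb in its tissue label and was placed by the letter of its title, so the difference of each tested member probe set, and the counts and medians of the pathway lists, were also computed without it. RNA quality was read from the 3′ over 5′ signal of Gapdh, whose log2 ratio was -0.239 to -0.0778 in forelimb and -0.299 to -0.263 in hindlimb on the A array (exact two-sided permutation p = 0.1, the smallest that 3 against 3 samples can give). That of beta-actin overlapped between the limbs (exact permutation p = 0.3), as did both ratios on the B array (exact permutation p = 0.8 and 0.9).

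Across the tested A probe sets, the signals of every gene but Lox overlapped between the limbs. Lox, the founding lysyl oxidase, was the gene with the largest differences. None of the 14 tested A probe sets passed an adjusted p of 0.05 in limma, where 0.0326% of all tested probe sets passed, and the lowest adjusted p in the group was 0.633. At an unadjusted p under 0.05 there were 2, both of Lox and both lower in hindlimb, against 5.54% of all A probe sets (the same share as on the B array) in either direction and 3.69% lower in hindlimb. All hindlimb samples lay below all forelimb samples on the same 2, against 6.10% of all A probe sets, and no member had the opposite separation. Differences were negative for 11 of the 14, with a median of -0.12, while 52.2% of all A probe sets were negative and their median was -0.01. This median rested partly on single arrays: it was -0.03 without hindlimb 26 (9 of 14 negative) and -0.07 without forelimb 11 (10 of 14). Without the Lox probe sets, 9 of 12 were negative, the range was -0.23 to 0.24 and all 12 overlapped between the limbs. On the B array the 1 tested probe set did not pass at either level. There 0.0117% of all probe sets passed the adjusted threshold, 3.21% were lower in hindlimb at an unadjusted p under 0.05 and 52.2% were negative.

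**Figure D1:**
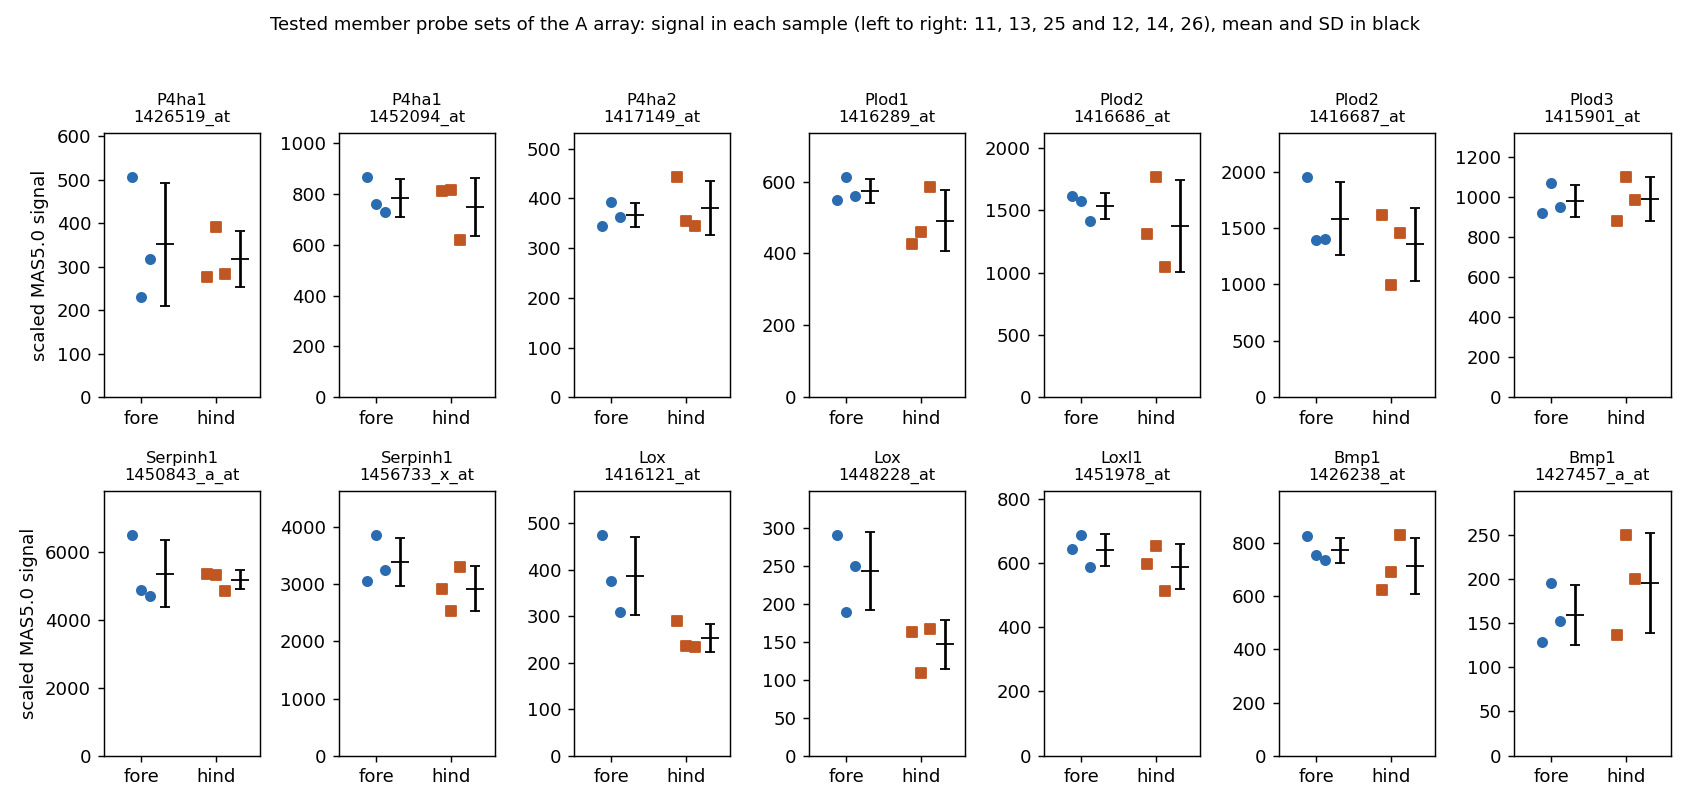
Scaled MAS5.0 signal (vertical axes, linear from 0) of the 14 tested member probe sets of the A array in forelimb (circles) and hindlimb (squares), 1 point per sample, with the mean and SD of the 3 samples in black. The limbs separate on the 2 Lox panels, with forelimb at 307.8 to 474 and hindlimb at 234.6 to 288.8 on 1416121_at, and overlap on the other 12.

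The prolyl 4-hydroxylases come first in the pathway. P4ha1 encodes the most widely expressed catalytic alpha subunit of the enzyme, and P4ha2 encodes the second one. Both genes are known hypoxia-inducible targets, so the 250 bases before their RefSeq start sites (GRCm38.p6, plus strand for both, 5′ to 3′) are shown, with matches to the hypoxia-element core in capitals. The letters searched were ACGTG and GCGTG on both strands, so CACGT and CACGC also count, and overlapping matches were counted separately. The P4ha1 sequence is chr10:59323046-59323295 and the P4ha2 sequence is chr11:54100674-54100923.
P4ha1: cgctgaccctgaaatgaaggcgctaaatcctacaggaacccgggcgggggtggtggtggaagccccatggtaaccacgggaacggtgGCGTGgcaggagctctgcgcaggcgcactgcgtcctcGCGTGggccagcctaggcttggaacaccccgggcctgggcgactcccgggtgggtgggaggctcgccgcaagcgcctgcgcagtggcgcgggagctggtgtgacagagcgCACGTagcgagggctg
P4ha2: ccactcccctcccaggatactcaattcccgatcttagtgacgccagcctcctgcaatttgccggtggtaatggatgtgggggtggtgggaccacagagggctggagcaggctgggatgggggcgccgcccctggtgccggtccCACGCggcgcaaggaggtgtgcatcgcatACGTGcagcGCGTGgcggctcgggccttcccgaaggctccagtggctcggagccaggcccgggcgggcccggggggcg
Each of the 2 sequences held 1 match to ACGTG and 2 to GCGTG. RefSeq promoters were read for 5 of the 10 genes, and the other 3 (Plod1, Plod3 and Serpinh1) each held at least 1 match as well. The Lox promoter was left out on purpose and is not reported here, so nothing is said of its letters. Of 32851 promoters of the same length, 38.6% held at least 1 of these letters, 16.6% held ACGTG and 28.2% held GCGTG. A match describes the letters alone and is not evidence of a used site.

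P4ha1 had signals of 866.7, 758.6 and 727.1 in forelimb 11, 13 and 25 on its brighter probe set, 1452094_at. In hindlimb 12, 14 and 26 the same probe set gave 811.9, 815.5 and 617.1. The limbs overlapped and the difference was -0.07 ± 0.15 (SE, limma adjusted p = 0.995), with a 95% interval of -0.39 to 0.25. Its dimmer probe set, 1426519_at, had the largest standard error of the group on the A array. There forelimb 11 gave 506.1, well above forelimb 13 (231.2) and 25 (317.2), and hindlimb gave 276.1, 391.7 and 283.8. The difference of -0.09 ± 0.24 turned to 0.19 without forelimb 11, so its sign rested on that array.

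P4ha2 showed no separation either. Its signals were 344.3, 393 and 362.9 in forelimb and 443, 355.2 and 343.6 in hindlimb, with hindlimb 12 the highest of the 6. The difference was 0.04 ± 0.14 (SE, limma adjusted p = 0.995), and its 95% interval of -0.27 to 0.36 leaves room for a change of up to 1.28-fold upward or to 0.827 of the forelimb value. It became -0.06 without hindlimb 12.

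The lysyl hydroxylases divide the work by position in the chain. Plod1 hydroxylates lysines of the triple helix, Plod2 is known for the lysines of the telopeptides at the chain ends, and Plod3 also carries glycosyltransferase activity. On the A array Plod1 gave 548.5, 613 and 561.1 in the forelimb samples, with hindlimb values of 425.4, 461 and 586.1. Hindlimb 12 and 14 lay below all forelimb samples and hindlimb 26 within them, and the difference was -0.22 ± 0.15 (SE, limma adjusted p = 0.955). Without hindlimb 26 it was -0.35, and without hindlimb 12 -0.13. The Plod1 probe set of the B array, the 1 tested member there, gave 169.3, 245 and 169.3 in forelimb and 174.3, 221.4 and 129.3 in hindlimb. Its difference of -0.14 ± 0.31 had a 95% interval of -0.81 to 0.54, much wider than on the A array.

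The 2 probe sets of Plod2 gave like differences through different samples. On 1416686_at the forelimb signals were 1612.9, 1577.1 and 1417.9 and the hindlimb signals 1306.5, 1767.8 and 1045, so hindlimb 14 was the highest and hindlimb 26 the lowest of the 6. On 1416687_at forelimb gave 1953.3, 1390.6 and 1404.3 and hindlimb gave 1614.2, 994.3 and 1459.6, where hindlimb 14 was the lowest. The differences were -0.19 ± 0.17 and -0.23 ± 0.19 (SE, limma adjusted p = 0.972 and 0.966), and both sets of limbs overlapped. Single arrays carried much of each value. The first was -0.38 without hindlimb 14 and -0.01 without hindlimb 26. The second was -0.03 without hindlimb 14, -0.07 without forelimb 11 and -0.37 without hindlimb 12.

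Plod3 was the closest to 0 of the tested probe sets. It had 923.3, 1070 and 950.6 in forelimb and 882.6, 1102.1 and 987 in hindlimb, a difference of 0.01 ± 0.13 (SE, limma adjusted p = 0.999) with a 95% interval of -0.28 to 0.30. Its sign turned when forelimb 11, forelimb 25 or hindlimb 14 was left out, with values of -0.03, -0.01 and -0.07.

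Serpinh1, which encodes the collagen chaperone HSP47, was measured by 2 bright probe sets. On 1450843_a_at, whose suffix marks probes that match several transcripts of the gene, forelimb gave 6509, 4896.4 and 4700.5 and hindlimb gave 5362.1, 5345.2 and 4874.4. Forelimb 11 was the highest, the other samples lay close together, and the difference was -0.03 ± 0.13 (SE, limma adjusted p = 0.995). Without forelimb 11 it was 0.11. On 1456733_x_at, whose suffix marks probes that can also match other sequences, forelimb gave 3062.8, 3860.2 and 3257.8 and hindlimb 2926, 2525.1 and 3308.8. That difference was -0.22 ± 0.13 (SE, limma adjusted p = 0.952) with overlapping limbs. It was -0.12 without forelimb 13 or hindlimb 14, -0.29 without forelimb 11 and -0.31 without hindlimb 26. The 95% intervals were -0.31 to 0.24 and -0.50 to 0.07, which allow hindlimb values from 0.807 to 1.18 and from 0.706 to 1.05 times those of forelimb.

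Bmp1, the procollagen C-proteinase that also activates lysyl oxidase precursors, differed between its probe sets in sign. The bright 1426238_at gave 827.7, 756.5 and 738.1 in forelimb and 623.1, 690.2 and 830.6 in hindlimb, with a difference of -0.12 ± 0.14 (SE, limma adjusted p = 0.982). The dimmer 1427457_a_at gave 128.7, 195.8 and 152.1 in forelimb and 136.5, 249.6 and 199.7 in hindlimb, with a difference of 0.24 ± 0.22 (adjusted p = 0.972). Limbs overlapped on both, and both values moved widely with 1 array left out. The first was -0.03 without hindlimb 12 and -0.23 without hindlimb 26, and the second 0.07 without hindlimb 14 and 0.44 without hindlimb 12. The third Bmp1 probe set, 1427458_at, lay under the filter of 100 on every array, at 36.8 to 82 in forelimb and 40.8 to 64.1 in hindlimb, and was not tested.

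Lox encodes the lysyl oxidase that starts cross-linking of collagen and elastin. On 1416121_at its signals were 474, 376.2 and 307.8 in forelimb 11, 13 and 25 and 288.8, 235.5 and 234.6 in hindlimb 12, 14 and 26. On 1448228_at they were 290.5, 189.4 and 250.1 in forelimb and 163.5, 109.1 and 167.1 in hindlimb. Every forelimb sample lay above every hindlimb sample on both, although the gap was narrow, from 307.8 to 288.8 on the first and from 189.4 to 167.1 on the second. The first probe set averaged 386 ± 83.5 in forelimb (SD, n = 3) against 253 ± 31.0 in hindlimb, and the second 243 ± 50.9 against 147 ± 32.5.

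The Lox differences were -0.54 ± 0.17 (SE, unadjusted p = 0.00968, limma adjusted p = 0.633) and -0.62 ± 0.20 (unadjusted p = 0.00981, limma adjusted p = 0.633). These correspond to forelimb values 1.45 and 1.54 times those of hindlimb on the signal + 32 scale, with 95% intervals of -0.92 to -0.16 and -1.06 to -0.18. Neither passed over all probe sets: 1.49% and 1.54% of the tested A probe sets had p-values at least as small. Both measure the same gene in the same RNA samples, so they are not independent evidence. Without forelimb 11, the array whose limb rests on its title and the highest Lox sample on both, the differences were -0.39 and -0.50 (unadjusted p = 0.046 and 0.047 in limma, adjusted p = 0.841 for both). The third Lox probe set, 1437903_at, was under the filter on every array, at 24.7 to 31 in forelimb and 3.3 to 35.4 in hindlimb, and gave no usable comparison.

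**Figure D2:**
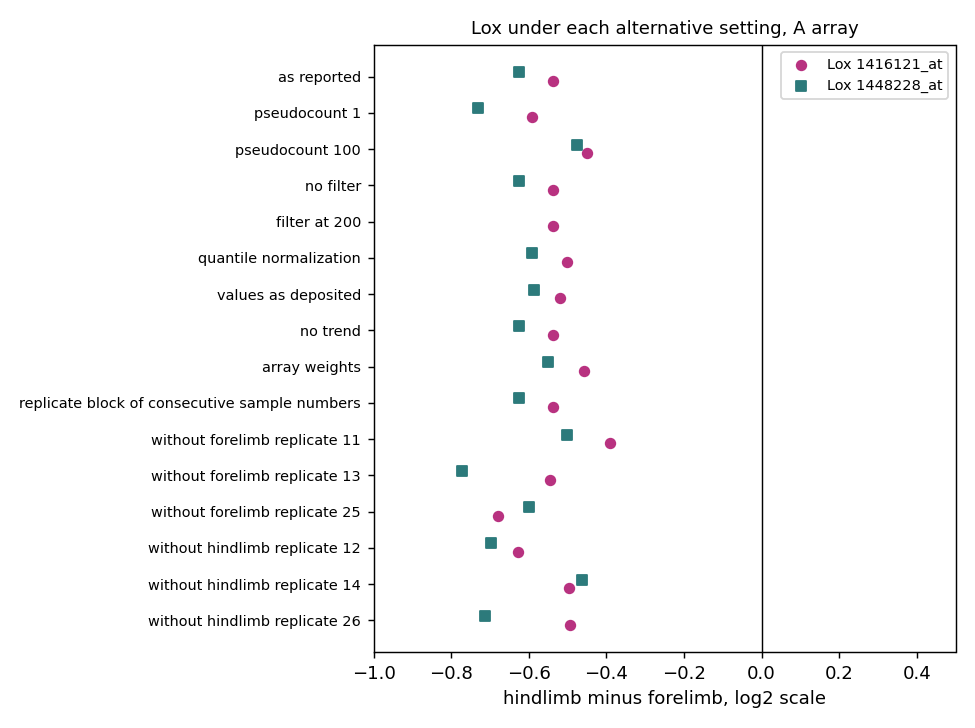
Hindlimb minus forelimb difference of the 2 tested Lox probe sets (horizontal axis, log2 scale) under each setting listed on the vertical axis, with circles for 1416121_at and squares for 1448228_at. All values lie below 0, from -0.68 to -0.39 for the first and from -0.77 to -0.46 for the second, and the second has no value with a filter at 200.

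Loxl1, a lysyl oxidase relative best known for elastic fibre cross-linking, did not share the separation seen for Lox. Its A probe set gave 644.9, 686.5 and 587.8 in forelimb and 598.1, 652.9 and 513.6 in hindlimb, with overlapping limbs and a difference of -0.12 ± 0.14 (SE, limma adjusted p = 0.981). Leaving out 1 array moved it between -0.19 (without hindlimb 14) and -0.03 (without hindlimb 26). The 95% interval was -0.42 to 0.18 and thus overlaps those of Lox, and the difference between the 2 genes was not tested. The Loxl1 probe set on the B array ranged from 23.6 to 149.3 in forelimb and from 41.4 to 155.7 in hindlimb. It reached 100 on 1 array of each limb and was not tested.

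**Figure D3:**
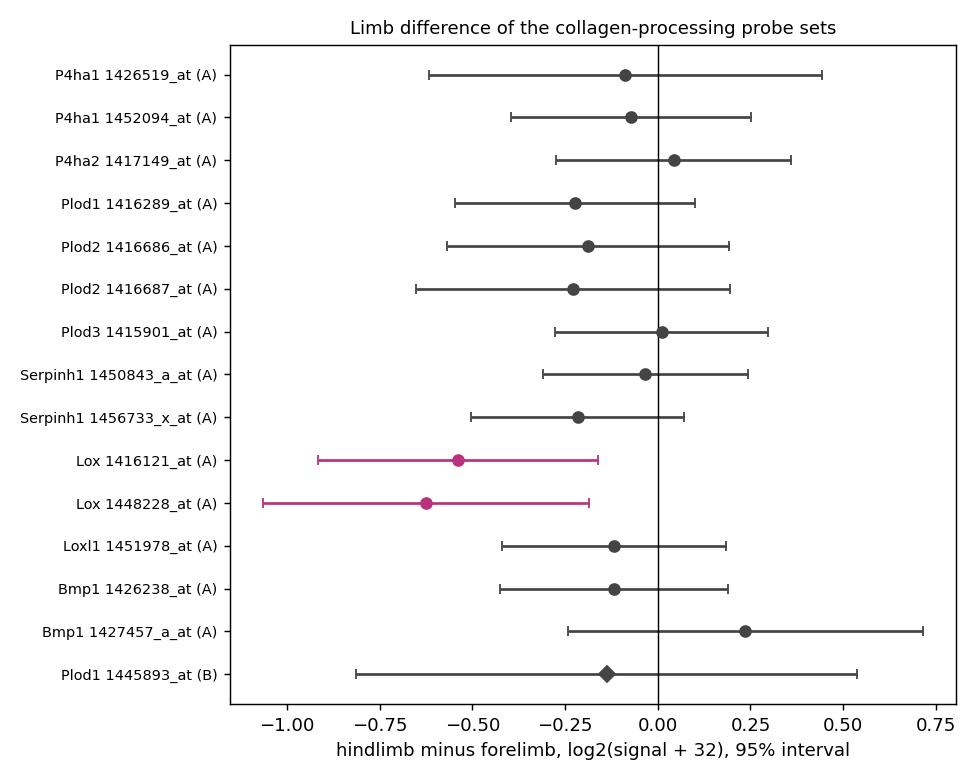
Hindlimb minus forelimb difference on the log2(signal + 32) scale with its 95% interval for the 15 tested member probe sets, ordered by role from P4ha1 at the top to Bmp1, with the B array probe set as a diamond at the bottom. The intervals of the 2 Lox probe sets lie below 0 and the other 13 include 0.

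Some tissue marker sums also parted the limbs, and their part in the Lox values was not tested. On the A array, the summed signal of the 4 of 5 tendon markers carried was 585.4 to 1104.8 in forelimb and 350.5 to 572 in hindlimb. That of all 6 surface ectoderm markers was 3625.4 to 4826.4 and 2861.5 to 3420.2, and that of all 5 endothelium markers 1809.8 to 1904.3 and 1675.5 to 1801.3. Of 5 erythroid markers 4 were carried, and their sum ran the other way, at 27998.8 to 30749.2 and 31420.1 to 34868.2. Markers within a list did not all share its gap. In surface ectoderm Krt15 (-1.38), Krt14 (-0.83) and Krt5 (-0.40) had all forelimb samples above. Trp63 (0.09), Cdh1 (0.01) and Epcam (-0.01) overlapped between the limbs. Each endothelium marker overlapped when read singly. Of the tested tendon markers, Tnc (-0.98) had all forelimb samples above, while Kera (-1.01) and Scx (-0.10) overlapped. Cartilage, muscle, macrophage and nerve marker sums overlapped between the limbs, but single markers within them did not all overlap. Of 6 tested cartilage markers, 3 had an unadjusted p under 0.05 with all forelimb samples above, namely Matn4 (-0.79), Acan (-0.72) and Col2a1 (-0.61), and the median was -0.46. The bright Col9a1, at 3938 to 4838 in forelimb and 4651 to 5963 in hindlimb, made up much of the cartilage sum. In the nerve list Ngfr (-0.72) had all forelimb samples above and Nefm (0.72) all hindlimb samples above. Nefm was dim and met the filter only through its hindlimb samples, at 103.5 to 160.5 against 64.7 to 77.8 in forelimb. None of the markers named here passed the adjusted threshold in limma. The limma adjusted p was 0.059 for Krt15 and 0.193 to 0.611 for Matn4, Acan, Col2a1, Ngfr and Nefm. Markers were named singly after their values were seen. On the B array all 6 marker sums that could be formed overlapped, tendon included (3 of 5 markers, 2561.8 to 2936 in forelimb and 2300.4 to 2966.7 in hindlimb). Muscle, macrophage and nerve rested on 1 marker each there, and cartilage and surface ectoderm on 2. In the tendon list of the B array, Tnc (-1.07, limma adjusted p = 0.894) had all forelimb samples above. Mkx (-0.11) and Scx (0.07) overlapped. Myf5 and Tubb3 were below 100 on every A array, and Ptprc on every B array. The Gapdh ratio given above parted the limbs on the A array too, and its part in these values was likewise not tested.

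Other genes of the collagen pathway were grouped by role and read on the brightest tested probe set of each. Over all 8946 genes tested in this way on the A array, 3.97% were lower in hindlimb at an unadjusted p under 0.05, 1.87% were higher, 53.0% had a negative difference and the median was -0.01. On the B array, of 7768 genes, 5.87% passed that unadjusted p (3.21% lower and 2.66% higher) and 50.5% were negative. No gene of the 5 pathway roles or of the hypoxia list passed the adjusted threshold on either array, against 0.0335% of all A genes and 0.0257% of all B genes.

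Partners of the hydroxylases in the endoplasmic reticulum were mostly near 0 on the A array. Of 12 tested genes for modification and folding, 1 was lower at an unadjusted p under 0.05 and 0 were higher, 10 were negative and the median was -0.04. The count of negative values fell to 6 without hindlimb 26 (median -0.003) and to 7 without forelimb 11 (median -0.06). P4hb, the protein disulfide isomerase that forms the beta subunit of prolyl 4-hydroxylase, had -0.01, and Crtap and Ppib, members of the prolyl 3-hydroxylation complex, had -0.03 and -0.01. Pdia3, another disulfide isomerase, had the smallest p (-0.50 ± 0.16 SE, limma adjusted p = 0.633, all forelimb above), while its B array probe set gave 0.02. P3h3, a prolyl 3-hydroxylase family member, followed with -0.26 (adjusted p = 0.947). Of 6 such genes on the B array, 1 was lower at that p: Colgalt2, a collagen galactosyltransferase, with -0.61 ± 0.25 (SE, limma adjusted p = 0.894). That count was 0 without forelimb 11, forelimb 13, hindlimb 12 or hindlimb 26 in limma.

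Genes of procollagen export and propeptide cleavage were few. All 5 export genes tested on the A array were negative (median -0.12), and 1 had an unadjusted p under 0.05. That 1 was lost without forelimb 11, forelimb 13 or hindlimb 14, where 4, 4 and 3 of 5 were negative. The median was -0.06 without forelimb 11, -0.18 without forelimb 13 and -0.22 without forelimb 25 or hindlimb 12. Sec24d, a coat protein of the vesicles that leave the endoplasmic reticulum, had -0.32 ± 0.13 (SE, limma adjusted p = 0.861), and Kdelr2, a retrieval receptor, had -0.35 with overlapping limbs (adjusted p = 0.94). Of 3 cleavage genes on the A array 1 was negative, the metalloprotease Mep1a (-0.33, adjusted p = 0.863), and 2 were without forelimb 25 or hindlimb 12. Mep1a was also the 1 cleavage gene with an unadjusted p under 0.05, with all forelimb samples above. That count was 1 without forelimb 11 and 0 without any other single sample. Pcolce2 and Pcolce, enhancers of the Bmp1 proteinase, had 0.22 and 0.07 with overlapping limbs. The export gene of smallest p on the B array was Tmed2 (0.94 ± 0.42 SE, limma adjusted p = 0.902) and the cleavage gene was Mep1a (-0.24, adjusted p = 0.951).

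The genes that act beside Lox on the fibril, and the collagen chains themselves, had mostly negative differences. Of 12 tested cross-linking and fibril assembly genes on the A array, all 12 were negative, the median was -0.27 and 5 had an unadjusted p under 0.05, all lower (2 without forelimb 11 and 3 without hindlimb 14). Lumican (Lum), a proteoglycan of the fibril surface, had -0.68 ± 0.19 (SE, limma adjusted p = 0.551) and thrombospondin 1 (Thbs1) -0.43 ± 0.15 (adjusted p = 0.719), each with all forelimb samples above. The other lysyl oxidases of that list, Loxl4 and Loxl3, had -0.54 (adjusted p = 0.877) and -0.12 (adjusted p = 0.983) with overlapping limbs. Of 17 tested collagen chains 14 were negative, the median was -0.34 and 8 had an unadjusted p under 0.05, all lower (4 without forelimb 13 and 5 without hindlimb 12). Among the 8, Col9a2 met the filter only through its forelimb samples, at 118.4 to 202.5 against 54.1 to 83.3 in hindlimb. Its place in that count therefore follows in part from the filter. Col1a1 had -0.83 ± 0.15 (SE, limma adjusted p = 0.183) and Col2a1, the cartilage collagen, -0.61 ± 0.18 (adjusted p = 0.611). Col3a1 (0.17), Col9a1 (0.19) and Col5a3 (0.10) were positive. Of these, Col3a1 had all hindlimb samples above, by a narrow gap from 3986 to 4036, and Col9a1 and Col5a3 overlapped between the limbs.

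Over 9 genes read in the same way on the A array, the enzyme group itself had a median of -0.12 (-0.03 without hindlimb 26 and -0.07 without forelimb 11) and 1 gene at an unadjusted p under 0.05, Lox. The difference between the lists was not tested. The B array did not repeat these shifts uniformly: of 2 assembly genes 1 was negative, with Sparc at 0.38 (limma adjusted p = 0.904), and of 3 chains 2 were negative, with Col1a2 at 0.57 (adjusted p = 0.894) against -0.34 on the A array.

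Hypoxia-response genes, a list that fits the known regulation of P4ha1, P4ha2, Plod2 and Lox, had a median near 0. A part of hypoxia in the member values was not tested. Of 17 tested on the A array 10 were negative, the median was -0.004 and 0 had an unadjusted p under 0.05 in limma, against 5.84% of all genes. Without forelimb 11, 8 were negative and the median was 0.05. At that unadjusted p, 1 was lower and 1 higher without forelimb 13, and 1 was lower without hindlimb 12 or hindlimb 26. Pfkl, a glycolytic enzyme, had 0.26 ± 0.12 and Hk2, a hexokinase, -0.35 ± 0.16 (SE, limma adjusted p = 0.905 and 0.911). Pfkl had all hindlimb samples above, and Hk2 overlapped between the limbs. The median of 5 on the B array was 0.01 and Adm, adrenomedullin, had the smallest p (-0.31, adjusted p = 0.924).

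**Figure D4:**
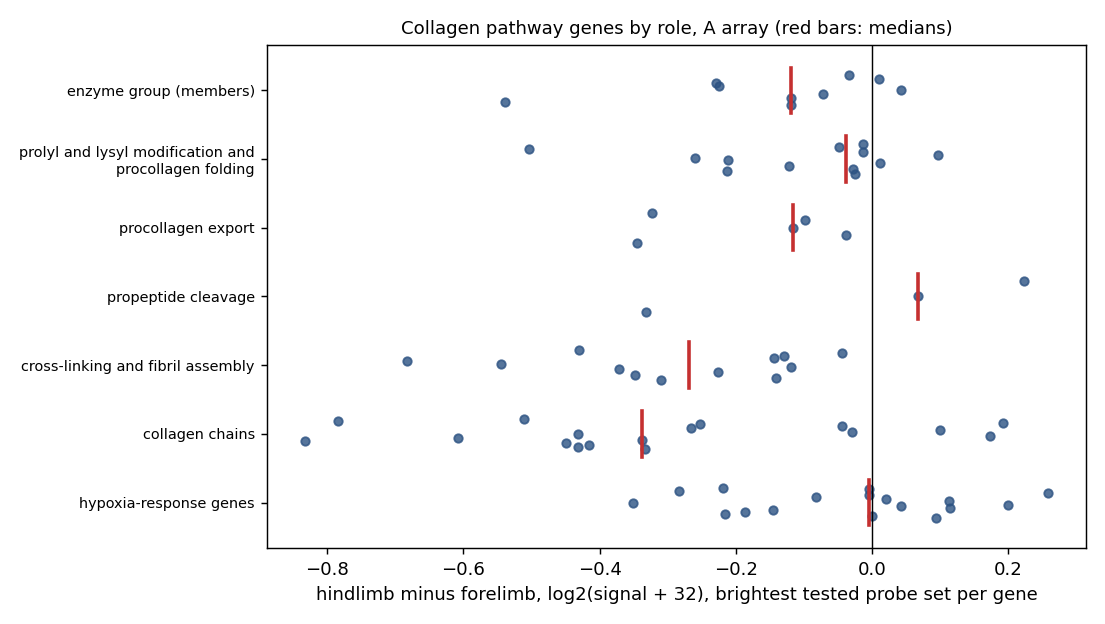
Hindlimb minus forelimb difference on the log2(signal + 32) scale for each tested gene of the A array (1 point per gene, brightest probe set), by role, with list medians in red. The medians are -0.27 for cross-linking and fibril assembly and -0.34 for collagen chains, and -0.12 for the enzyme group at the top.

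Over the 6 A arrays the 9 measured genes together, each centred and then averaged on the log2 scale, gave 0.174, 0.0756 and -0.0364 in forelimb 11, 13 and 25 and -0.0326, -0.0946 and -0.0863 in hindlimb 12, 14 and 26. Forelimb 11 was the highest, and forelimb 25 lay next to hindlimb 12. The 5 other genes whose profiles were most like this mean were Pmp22, Sytl2, Tnc, Sf3b5 and Lgalsl, with Pearson r of 0.982 to 0.989 over 6 arrays. These were the best of the 8946 tested genes less the 9 members, over few arrays scaled in the same way, so the likeness is a description only. Tnc, the tendon and mesenchyme matrix glycoprotein tenascin C, is also among the tendon markers.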

How the data were processed

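The deposited values are the authors' MAS5.0 signal intensities, linear and 1 per probe set, per the labels, which omit this for forelimb 11 on the A array. Their 2% trimmed mean was 350.1 on A arrays and 70.01 on B arrays; detection calls were not used here. Platform annotation gave the gene symbols, which were brought up to date by gene identifier with RefSeq (GRCm38.p6). Of the A probe sets, 20393 carried a single symbol, 691 more than 1 and 1606 none, and of the B probe sets 14674, 245 and 7656.

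Arrays were scaled to a trimmed mean of 500 (factors 1.428 and 7.142) and logged as log2(signal + 32). Probe sets at 100 or more on at least 3 of 6 arrays were tested, less 64 control probe sets per design. The larger B factor stretches dim B signals, and levels are not compared across designs. The limb comparison used limma 3.58.1 (R 4.3.3; trended eBayes, two-sided, Benjamini-Hochberg), 1 fit per design. RNA ratios used exact permutation tests (scipy 1.17.1). The fit was also run on simulated data with independent noise drawn from limma's own variance estimates. That run held no sample or batch effects, so it cannot speak to them. Figures used matplotlib 3.10.9. With 3 arrays per limb, the array number limits precision (median SE 0.16 on A, 0.23 on B).

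Members and gene lists were chosen with earlier results of these data known. All member probe sets are named; from each other list the rule named genes past the threshold, or else the 2 (A) or 1 (B) of smallest p, and the 5 genes most like the members. P4hb, Crtap, Ppib, Pcolce, Loxl3, Loxl4, Col3a1, Col9a1, Col9a2 and Col5a3 were added after their values were seen. Alternatives were other pseudocounts, filters, scalings and variance settings, a block, joint adjustment and leaving out each sample.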

Additional observations from a re-analysis of the deposited data

How the results depend on the processing

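Over 15 tested member probe sets and 221 alternative fits, 0 fits gave an adjusted p under 0.05 (lowest 0.409, limma). In 210 the direction was the same. It was reversed in 11, of 6 probe sets whose reported differences lay between -0.14 and 0.04. Serpinh1 1450843_a_at had 0.013 with array weights, 0.11 without forelimb 11 and 0.011 without hindlimb 26 (range without 1 sample -0.12 to 0.11). Plod3 ranged from -0.067 to 0.088, P4ha2 from -0.063 to 0.11 and P4ha1 from -0.33 to 0.19 (1426519_at) and from -0.14 to 0.055 (1452094_at) without 1 sample, and Plod1 on the B array from -0.30 to 0.030. Both Lox probe sets stayed negative at an unadjusted p under 0.05 in every alternative run (0.00352 to 0.047), 15 for 1416121_at and 14 for 1448228_at, which a filter at 200 removed.

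The 2 A members at an unadjusted p under 0.05 became 1 with a filter at 200, where the filter removed 1 Lox probe set, and 2 to 4 without 1 sample (4 without hindlimb 26, when Plod1 and Serpinh1 1456733_x_at joined). On the B array there were 0 in every setting that tested Plod1. With values as deposited or a filter at 200, Plod1 on the B array fell below the filter and could not be tested, and with a filter at 200 neither could Bmp1 1427457_a_at.

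Over all A probe sets, the 5 calls became 1 with no filter, 14 with array weights and 3 to 9 without 1 sample. The 2 B calls became 1 with no filter, 0 with no trend (871 at an unadjusted p under 0.05, limma) and 1 to 4 without 1 sample. No paired analysis by shared replicate number was possible because the forelimb and hindlimb samples share none. A replicate block of consecutive sample numbers (11 with 12, 13 with 14, 25 with 26), for which the labels give no pairing, gave 8 A calls and 4 B calls and no member among them. Counts over the lists without each sample were added after seeing the data. The cause of these changes was not tested. Signals near the filter and 3 arrays per limb limit what can be seen: the intervals of 13 member probe sets include 0 without showing equal levels.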
